A study of Mus musculus with 6 samples.

Results

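The 10 genes described here belong to the signalling pathway of myostatin and activin. They were chosen by name for their place in that pathway: the ligand Mstn, its antagonist Fst, the type II receptors Acvr2a and Acvr2b, the type I receptors Acvr1b and Tgfbr1, and the intracellular mediators Smad2, Smad3, Smad4 and Smad7. All 10 were found among the 22764 genes placed on NCBI Build 37 (mm9) of the mouse genome. Chromatin of primary myotubes was immunoprecipitated with an antibody to the transcription factor Sox6 or with an antibody to the C-terminal repeat of RNA polymerase II (Pol II), and the DNA was sequenced (ChIP-seq). DNA of chromatin before immunoprecipitation (input) served as the background. Each of the 3 groups, Sox6, Pol II and input, holds 2 libraries. All 6 libraries came from wild type C57BL/6 cells: myoblasts of fetal limb at E18.5, with 17 passages listed, differentiated for 48 h into myotubes in medium with 2% horse serum. With these libraries the study asked where Sox6 binds in these cells and which of the genes near its sites carry Pol II. The study also examined Sox6 knockout muscle and Sox6 null myotubes by other methods, which are not among the libraries. Within the 6 libraries there was no second genotype, treatment or time, so every comparison below is between an immunoprecipitation and input.

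Myostatin and the activins are secreted ligands of the TGF-beta family that restrain the growth of skeletal muscle. A ligand dimer is bound by a type II receptor, which phosphorylates a type I receptor. The activated type I receptor phosphorylates Smad2 and Smad3, and these enter the nucleus together with Smad4 to bind regulatory DNA. Follistatin, encoded by Fst, captures the ligands outside the cell, and Smad7 blocks the activated type I receptor from within. Myostatin is made chiefly by muscle cells, so differentiated myotubes are both a source and a target of the signal.

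Mstn lies on the plus strand at chr1:53118507-53124923 and Fst on the minus strand at chr13:115242470-115248938, and they are 6417 and 6469 bp long. Acvr2a (chr2:48669629-48758789), Acvr2b (chr9:119311562-119342619), Acvr1b (chr15:101004556-101043032) and Tgfbr1 (chr4:47366094-47427803) are on the plus strand and span 31058 to 89161 bp. Smad3 is the longest of the 10 with 111228 bp on the minus strand at chr9:63494574-63605801. Smad2 (chr18:76401234-76465385), Smad7 (chr18:75527183-75555589) and Smad4 (chr18:73798663-73863434, minus strand) share a chromosome. No other gene starts within 1 kb of the start of a member, so reads at the starts are not shared with a neighbouring promoter.

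The Sox6 libraries held 2985437 and 1468604 mapped reads, the Pol II libraries 1538757 and 2762155, and the inputs 21973495 and 24249850. Levels in windows of fixed width are given as RPM (reads scaled to 1000000 mapped reads), and levels over gene bodies as RPKM (the same per kb of length). Pol II over the gene body exceeded input for 10 of 10 muscle markers, whose summed level was 322 and 342 RPKM against 6.81 and 6.96 RPKM in input. Of 12 markers of other cell types, 1 (Pax7, of satellite cells) was higher and 8 were lower than input, and their summed Pol II level was 4.05 and 3.84 RPKM against 5.49 and 5.48 RPKM. Each value is an average over all nuclei of a culture, so fewer cells with Pol II on a gene and less Pol II per cell cannot be told apart. The 2 libraries of an antibody came from independent immunoprecipitations. Whether these used separate animals is not stated in the sources used here, so p-values measure only the spread between these libraries.

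Sox6 belongs to a family of factors that bind short AT-rich sequences through an HMG box, and it has no activation or repression domain of its own. Of the 10 genes, 2 had a peak of the common Sox6 list inside the gene or within 20 kb of it, namely Acvr1b and Smad3. Among all genes this share was 4.34%, and among the 7704 genes at least as long as Smad7 it was 7.58%. The common list holds peaks that the authors called in both replicates at no more than 50 bp from each other. Peaks called in replicate 1 or in replicate 2 added Fst, which gives 3 of the 10 genes with any Sox6 peak, against 11.5% of all genes. Mstn, Acvr2a, Acvr2b, Tgfbr1, Smad2, Smad4 and Smad7 had no Sox6 peak of any list in this range. In each of the 11 peaks counted for the 3 genes, the nearest annotated gene was the member itself. These 11 count a common site again in the list of each replicate.

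Sequences of some of these peaks are shown because they differ in the 6-base words that Sox6 and the myogenic factors are known to bind. Letters in capitals mark ACAAAG or ACAATG, taken here as Sox words, and CAGCTG or CAGGTG, taken as E-boxes, on either strand. E-boxes are the recognition sequences of MyoD and myogenin. All sequences are from the plus strand of NCBI Build 37. The common peak in Smad3 covers 80 bp at chr9:63513262-63513341, and that in Acvr1b covers 300 bp at chr15:101026682-101026981. A replicate 1 peak in Smad3 lies at chr9:63510732-63510871. For the replicate 2 peak upstream of Fst, which is 60 bp wide, the 300 bp around its centre are given, chr13:115250351-115250650.
Smad3 common peak: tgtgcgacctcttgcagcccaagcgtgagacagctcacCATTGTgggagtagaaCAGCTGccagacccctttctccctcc
Acvr1b common peak: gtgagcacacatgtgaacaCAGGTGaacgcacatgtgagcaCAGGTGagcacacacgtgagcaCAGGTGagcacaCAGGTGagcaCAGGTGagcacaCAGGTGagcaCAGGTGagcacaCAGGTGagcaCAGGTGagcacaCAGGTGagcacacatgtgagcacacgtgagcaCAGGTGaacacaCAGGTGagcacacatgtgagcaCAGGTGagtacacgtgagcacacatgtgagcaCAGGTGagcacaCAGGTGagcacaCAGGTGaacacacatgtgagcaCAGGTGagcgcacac
Smad3 replicate 1 peak: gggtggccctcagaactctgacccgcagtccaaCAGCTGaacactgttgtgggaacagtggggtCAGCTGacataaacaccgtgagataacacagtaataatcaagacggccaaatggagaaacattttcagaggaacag
Fst upstream window: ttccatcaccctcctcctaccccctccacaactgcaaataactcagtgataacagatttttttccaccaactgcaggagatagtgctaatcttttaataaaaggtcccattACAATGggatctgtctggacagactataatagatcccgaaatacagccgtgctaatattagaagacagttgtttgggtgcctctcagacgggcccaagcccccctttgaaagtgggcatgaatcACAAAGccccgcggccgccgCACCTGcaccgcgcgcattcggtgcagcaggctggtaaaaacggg

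The Smad3 peak held 1 Sox word and 1 E-box within its 80 bp, and 2 of each in 300 bp around its centre. The Acvr1b peak held no Sox word and 17 copies of CAGGTG, which recur in a tandem array that fills the interval. It was the only peak of the 1066 common peaks with at least 17 E-box matches in 300 bp, and the median peak had 1. The window upstream of Fst held 2 Sox words and 1 E-box, none of them inside the 60 bp that were called. Of the peaks not shown, the replicate 1 peak downstream of Fst held neither word in its 80 bp or in 300 bp around its centre. In Smad3, the called intervals chr9:63513132-63513291 of replicate 1 and chr9:63511132-63511271 of replicate 2 also held neither word. In windows of 300 bp, 65.9% of the common peaks held a Sox word and 76.0% an E-box. A match is a word in the sequence, and no binding to it was measured.

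In Acvr1b, which encodes the type I activin receptor also called ALK4, the common peak lay in intron 3 at 22275 bp downstream of the start site. In 450 bp around its centre the Sox6 libraries held 10 and 7 reads, equal to 3.35 and 4.77 RPM, and the inputs held 4 and 10 reads, equal to 0.182 and 0.412 RPM. Both Sox6 libraries were far above both inputs. Input was low here, above only 3.10% of the common peaks in replicate 1 and 24.8% in replicate 2. Reads of input replicate 1 were 36 bp long, and those of input replicate 2 and of both Sox6 libraries 39 bp. How well reads of either length map to the tandem array was not tested. The log2 ratio of Sox6 to input was 3.83 ± 0.66 (SE, 2 libraries per group, limma, adjusted p = 7.75e-09 over all 1066 common peaks), beside a median of 3.52 over these peaks. By this test 96.7% of the common peaks exceeded input. They were called on the same reads, so these ratios describe the peaks and are no independent test of them. Windows 2 kb to either side of the Acvr1b peak held 1 and 2 reads in Sox6 replicate 1, and 0 and 2 reads in replicate 2. Pol II gave 0 and 4 reads at the peak, and no Pol II peak of either replicate overlapped it.

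In Smad3, a receptor-regulated Smad that carries the signal to DNA, the common peak lay in intron 4 at 92500 bp downstream of the start site. The Sox6 libraries again held 10 and 7 reads, or 3.35 and 4.77 RPM, against 6 and 8 input reads, or 0.273 and 0.330 RPM. The log2 ratio was 3.72 ± 0.62 (SE, 2 libraries per group, limma, adjusted p = 4.03e-09). Windows 2 kb to either side of the Smad3 peak held 5 and 1 reads in each Sox6 library. The side with 5 reads covers a replicate 2 peak of intron 5. Elsewhere in the gene, a window of 450 bp centred 9952 bp from the start held 9 and 5 Sox6 reads without a called peak, against 5 and 7 input reads. In Sox6 RPM both member peaks stood in the lower part of the common list, above 15.8% of its peaks in replicate 1 and 14.3% in replicate 2. The median common peak had 5.02 and 6.81 RPM. The Smad3 peak rests on a pair of calls that do not overlap, at chr9:63513132-63513291 in replicate 1 and at chr9:63513312-63513371 in replicate 2. When peaks of the replicates had to share at least 1 base, 1 of the 10 genes, Acvr1b, kept a common peak.

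A shorter annotated model of Smad3 starts 91447 bp downstream of the start of the longest model, and the centre of the common peak was 1053 bp downstream of this second start. Within 500 bp of that start Pol II gave 7 and 15 reads, or 4.55 and 5.43 RPM, while the much deeper inputs gave 22 and 20 reads. Sox6 gave 0 and 2 reads there. Pol II per mapped read was above both inputs at this start, but so it was over the surrounding gene. The last of 4 equal parts of Smad3, which holds this start, had 4.04 and 4.44 RPKM of Pol II. Windows at the annotated starts 46025 and 6917 bp downstream had 2.60 and 5.07 RPM and 0.650 and 2.53 RPM. Whether transcription begins at the second start was not tested. At the common peak itself Pol II gave 5 and 14 reads, or 3.25 and 5.07 RPM, which is above 67.7% and 85.0% of the common peaks. A Pol II peak of each replicate overlapped the Smad3 Sox6 peak. Such an overlap was found for 18.2% of the common peaks with Pol II replicate 1 and for 25.0% with replicate 2.

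Peaks called in a replicate can be read in the other replicate. The reads of that replicate did not choose the interval. At sites of the common list, and where a call of that replicate lies close by, they gave a peak of their own. An exact binomial test (two-sided) compared Sox6 with input reads there, with Benjamini-Hochberg adjustment over all peaks of the list. The test treats every read as a separate event, so it speaks of counting error alone. Of all replicate 1 peaks 67.0% exceeded input in replicate 2, and of all replicate 2 peaks 84.4% did so in replicate 1. The Acvr1b peak of replicate 1 had 8 Sox6 and 9 input reads in replicate 2, a ratio of 14.7 after scaling to depth (adjusted p = 8.33e-06 by the exact test). The Acvr1b peak of replicate 2 had 9 Sox6 and 5 input reads in replicate 1, a ratio of 13.2 (adjusted p = 1.31e-05 by the exact test). Acvr1b exceeded input in each direction, but its peak was called in both replicates. These results restate its place in the common list and are no independent test of it.

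Smad3 had 5 peaks in the replicate lists, among them the pair of calls at its common peak, a site called in both replicates. All 5 passed the same test. Their ratios in the other replicate ran from 4.01 to 16.5. The lowest belonged to the replicate 2 peak at chr9:63511132-63511271 in intron 5, which had 6 Sox6 and 11 input reads in replicate 1 (adjusted p = 0.0144 by the exact test). The replicate 1 peak at chr9:63510732-63510871, shown above with its pair of CAGCTG words, lies in the same intron and had 7 Sox6 and 8 input reads in replicate 2, a ratio of 14.4. These peaks are more than 50 bp apart and are not in the common list. Each replicate nevertheless called a peak here, and the 450 bp windows of these calls overlap. Their passes are therefore no independent test of the site. A further replicate 2 peak lay in intron 1 at 15800 bp from the start, with 6 Sox6 and 6 input reads in replicate 1 and a ratio of 7.36 (adjusted p = 0.0021 by the exact test).

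Fst had a peak on each side of the gene, each from 1 replicate. The replicate 2 peak lay 1563 bp upstream of the start of the longest model, and held 8 Sox6 reads (2.68 RPM) and 6 input reads (0.273 RPM) in replicate 1. The ratio of 9.81 passed the test (adjusted p = 0.000119 by the exact test). The replicate 1 peak lay 4859 bp beyond the end of the gene, with 3 Sox6 and 10 input reads in replicate 2. Its ratio of 4.95 did not pass (adjusted p = 0.0501 by the exact test, and 0.0508 to 0.065 under 3 other settings).

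**Figure D1:**
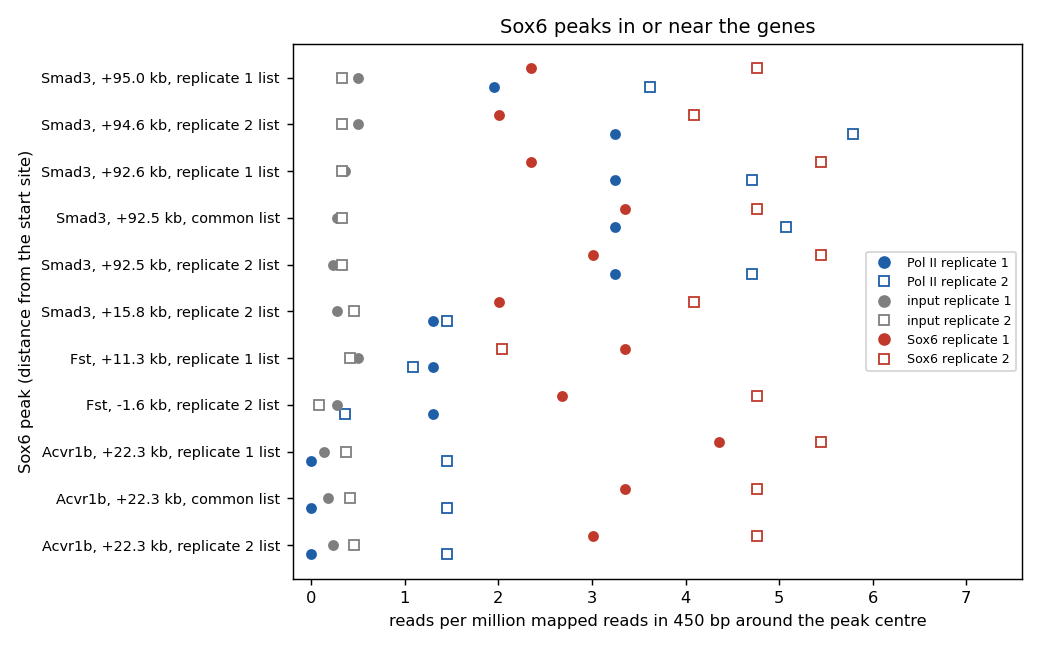
Level in 450 bp around the centre of each Sox6 peak of Acvr1b, Fst and Smad3, in RPM on the horizontal axis, with filled circles for replicate 1 and open squares for replicate 2. The Sox6 points (red) lie between 2.01 and 5.45 RPM and above the input points (grey) at every peak, while Pol II (blue) is at or above 1.30 RPM in both replicates at the Smad3 peaks and is 0 in replicate 1 at the Acvr1b peaks.

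**Figure D2:**
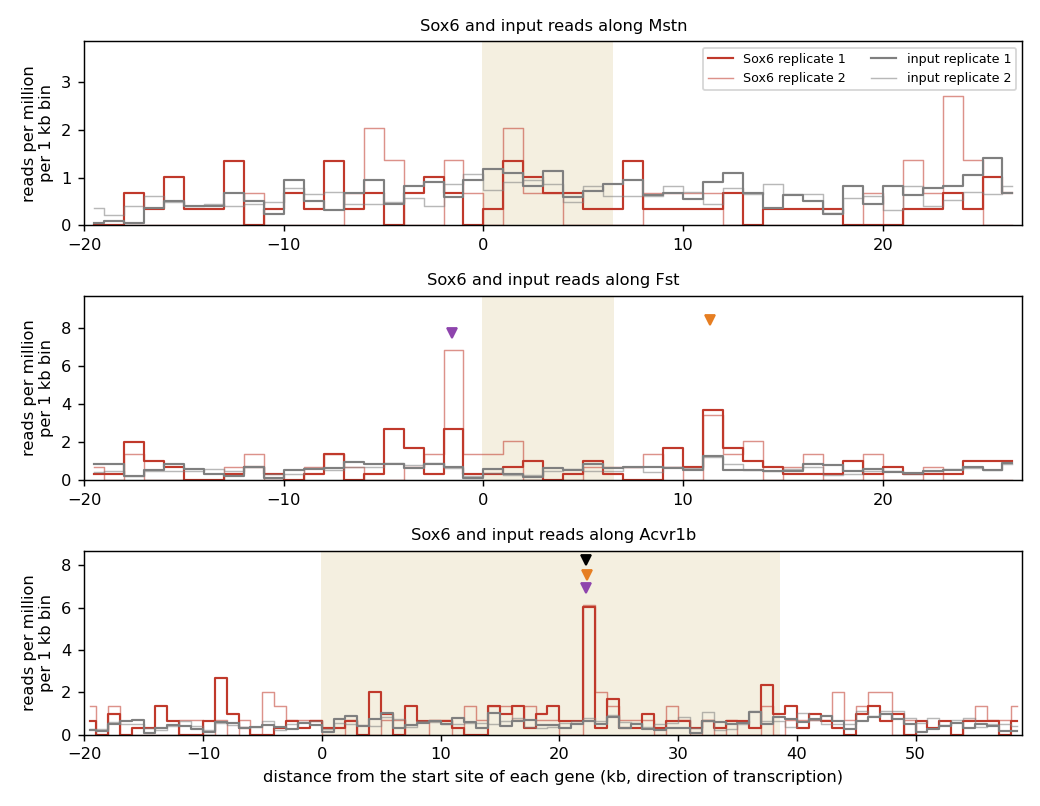
Sox6 (red) and input (grey) levels in RPM in 1 kb bins along Mstn, Fst and Acvr1b, with the gene shaded and dark and pale lines for replicates 1 and 2. Triangles mark peaks of the common list (black), of replicate 1 (orange) and of replicate 2 (purple). Acvr1b has its highest bin under the triangles in both replicates, and Mstn has no triangle.

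Mstn, the ligand, had no Sox6 reads at its start. Within 500 bp of the start at position 53118507 of chromosome 1, both Sox6 libraries held 0 reads, while the inputs held 25 and 26. At the depth of both Sox6 libraries together, the input rate would give 4.91 reads. A count of 0 was taken to allow up to 3 reads over the group, or 0.674 RPM. That is 1.64-fold below the 1.10 RPM in input. The upper end of the 95% Poisson interval of Sox6 is 0.828 RPM. Both limits cover the counting error of Sox6 only and take the input rate as exact. The fitted log2 ratio was -2.24, depends on the added 0.5 reads and did not pass (limma, adjusted p = 0.208). It was -2.71 with 0.2 RPM added, -1.53 with 5′ ends moved 75 bp downstream and -1.48 in windows of 2000 bp. It passed when either Sox6 library was left out, with adjusted p of 0.0179 without replicate 1 and 0.0157 without replicate 2, where the lone Sox6 library is assumed to vary like the inputs. Over 13 other settings the adjusted p ran from 0.0157 to 0.996. Across the 103 windows of 450 bp that tile the gene and 20 kb on each side, the strongest Sox6 window of Mstn held 3 and 1 reads.

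The 250 bp before the Mstn start, chr1:53118257-53118506, are shown for the Sox word they hold, here on the minus strand.
Mstn promoter: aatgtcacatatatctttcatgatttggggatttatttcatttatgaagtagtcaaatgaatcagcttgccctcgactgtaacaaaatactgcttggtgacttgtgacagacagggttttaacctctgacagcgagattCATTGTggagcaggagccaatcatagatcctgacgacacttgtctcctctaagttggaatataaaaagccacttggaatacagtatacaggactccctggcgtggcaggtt

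A Sox word is present in 22.6% of the promoters of this length, and an E-box, absent from this window, in 26.7%.

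At start sites Sox6 did not pass against input for any of the 6 members with at least 10 reads in the 4 libraries of the fit (limma with a trend, Benjamini-Hochberg adjustment). Of all 18689 windows tested, 2.22% were higher and none lower, while with 0.2 RPM added 32 were higher and 939 lower. At an unadjusted p under 0.05 there were 3 members, Fst and Smad7 higher and Mstn lower, beside 2942 of the 18689 windows. Fst had 2 and 3 Sox6 reads against 5 and 6 input reads, and Smad7 had 2 and 2 against 3 and 7. Without Sox6 replicate 1, Fst, Acvr1b, Smad3 and Smad7 passed as higher, on 3, 1, 2 and 2 Sox6 reads of the remaining library, beside 6759 of 18183 windows in that setting. Without Sox6 replicate 2 no member passed as higher, and the log2 ratios of Acvr1b and Smad3 were -0.90 and -0.63. With 0.2 RPM added, Acvr2a passed as lower, on 0 reads in both Sox6 libraries against 9 and 9 in input. Sox6 at the remaining 4 starts was at 0 or 1 read in both libraries, where a difference from input was not detectable at this depth.

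Over the gene body, from 500 bp after the start to the end of the gene, Sox6 exceeded input for 1 of the 10 members, Smad3. Of all 20083 genes tested 5.43% were higher and 1.77% lower. Scaling to bins without peaks raised the share of higher among these calls from 75.4% to 85.8%. Smad3 held 414 and 206 Sox6 reads over the body, or 1.25 and 1.27 RPKM, against 0.679 and 0.754 RPKM in input. The Sox6 libraries were close to each other and above both inputs, with a log2 ratio of 0.82 ± 0.09 (SE, 2 libraries per group, limma, adjusted p = 0.00772), higher than in 88.2% of genes. With 0.2 RPM added in place of 0.5 reads the adjusted p was 0.0606, and over 11 other settings it ran from 1.59e-17 to 0.0606.

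The excess over Smad3 was not limited to its peaks. Without 1000 bp around each single-replicate peak, which removed 3530 bp in 3 regions, Sox6 over the body was still 1.73 and 1.45 times input. With reads at the peaks included, Sox6 was highest in the last of 4 equal parts of the gene, where the peaks of introns 4 and 5 lie. That part had 1.72 and 1.76 RPKM against 0.620 and 0.779 RPKM in input, and the first part had 1.14 and 1.62 RPKM of Sox6. Sox6 was lowest in the third part, with 0.879 and 0.539 RPKM against 0.648 and 0.679 RPKM. The parts were not compared without the peak reads. Pol II was also high over Smad3. Across all genes the median Sox6 log2 ratio was 0.28 over the 7548 genes with more Pol II than input, -0.03 over the 5113 with less, and 0.63 over the 1917 genes with a Pol II log2 ratio of 2 or more, of which 17.9% passed as higher for Sox6. The part of Pol II density in the Smad3 result was not tested.

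For the other 9 members the Sox6 log2 ratio over the body lay between -0.45 and 0.50. Acvr1b was highest, with 0.856 and 0.735 RPKM against 0.551 and 0.577 RPKM in input (0.50 ± 0.15 SE, limma adjusted p = 0.067). Acvr2a was lowest, with 0.582 and 0.453 RPKM against 0.750 and 0.659 RPKM (-0.45 ± 0.14 SE, limma adjusted p = 0.0817). In both genes the Sox6 and input values did not overlap. Leaving out a Sox6 library leaves 1, which is assumed to vary like the inputs, and such fits called many genes, 7130 higher and 3030 lower of 20034 without replicate 1 and 4478 higher and 2088 lower of 20062 without replicate 2. By limma, Acvr1b passed without Sox6 replicate 1 (0.00669) or replicate 2 (4.92e-05), with scaling to bins without peaks (0.044) and with a replicate block (0.0141), and over 11 settings its adjusted p ran from 4.92e-05 to 0.728. Acvr2a passed as lower without Sox6 replicate 1 (4.51e-07), with thinned inputs (0.0158) and with a replicate block (0.00177), over a range of 4.51e-07 to 0.757. Smad4, at 0.474 and 0.381 RPKM against 0.520 and 0.467 RPKM, passed as lower without Sox6 replicate 1 (0.0125, over a range of 0.0125 to 0.996). Smad7, at 0.672 and 0.830 RPKM against 0.497 and 0.609 RPKM, passed as higher without Sox6 replicate 1 (8.46e-05) and with thinned inputs (0.037), over a range of 8.46e-05 to 0.945. Acvr2b, at 0.767 and 0.624 RPKM against 0.511 and 0.534 RPKM, passed as higher without Sox6 replicate 2 (0.000599), over a range of 0.000599 to 0.890. Mstn had 13 and 5 Sox6 reads over its body, or 0.736 and 0.575 RPKM, below both inputs at 0.931 and 0.746 RPKM, and did not pass (limma adjusted p = 0.619). The median over the 10 members was 0.12, beside 0.17 over all genes.

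Pol II over the gene body exceeded input for all 10 members (limma, adjusted p under the threshold of 0.05). Over all 20053 genes tested 37.7% were higher and 25.5% lower. The median log2 ratio of the members was 0.96, that of all genes was 0.12, and each of the 10 stood above the median gene. Scaling the libraries to bins without peaks, which raises every Pol II log2 ratio by 0.49, left all 10 higher, and the share of higher among all calls went from 59.6% to 77.1%. Levels of the members are given per length beside those of Actb, the beta-actin gene that the study used as a reference, which had 22.6 and 32.1 RPKM. The study took only reads in Pol II peak regions for its RPKM. All reads over the body were counted here, so these levels and shares of Actb are not on the study's scale.

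**Figure D3:**
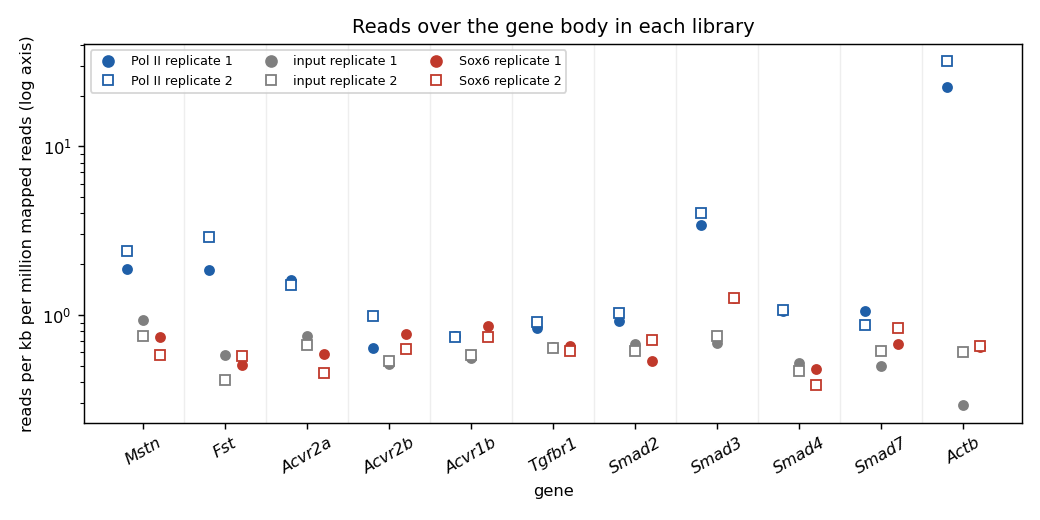
Level over the gene body of the 10 genes and of Actb in each of the 6 libraries, in RPKM on a log axis; circles are replicate 1 and squares replicate 2. Pol II (blue) lies above both inputs (grey) for all 10 genes, from 0.638 RPKM in Acvr2b replicate 1 to 4.05 RPKM in Smad3 replicate 2, and Sox6 (red) is highest for Smad3, at 1.25 and 1.27 RPKM.

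Among the ligand and its antagonist, Mstn had 1.87 and 2.39 RPKM of Pol II over the body against 0.931 and 0.746 RPKM in input. Both Pol II libraries were above both inputs, with a log2 ratio of 1.37 ± 0.25 (SE, 2 libraries per group, limma, adjusted p = 0.00107), above that of 80.4% of genes. The level was 8.28% and 7.44% of that of Actb. Of 4 equal parts of the whole gene, start window included, part 1 had 3.65 and 4.29 RPKM on 9 and 19 reads, and part 3 had 0.810 and 1.58 RPKM on 2 and 7 reads. Fst had 1.85 and 2.91 RPKM against 0.579 and 0.408 RPKM, a log2 ratio of 2.27 ± 0.31 (SE, limma, adjusted p = 0.000194). These levels rest on 17 and 48 Pol II reads for Fst and on 17 and 39 for Mstn, and the levels of the 2 genes overlap.

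The type II receptors had unlike levels of Pol II. Acvr2a, which encodes activin receptor IIA, had 1.62 and 1.51 RPKM against 0.750 and 0.659 RPKM in input, a log2 ratio of 1.15 ± 0.10 (SE, limma, adjusted p = 7.61e-06). Acvr2b, which encodes activin receptor IIB, the main myostatin receptor, had 0.638 and 0.983 RPKM against 0.511 and 0.534 RPKM, a log2 ratio of 0.61 ± 0.20 (SE, limma, adjusted p = 0.0248). Both Pol II libraries of Acvr2a were above both of Acvr2b. By limma, Acvr2b did not pass with 0.2 RPM added (adjusted p = 0.0579), nor without input replicate 1 (0.0731) or input replicate 2 (0.0666). Its adjusted p over 11 settings ran from 1.27e-10 to 0.0731.

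The type I receptors were also among the 3 members with the lowest levels, with Acvr2b between them. Tgfbr1, which encodes ALK5, had 0.839 and 0.905 RPKM of Pol II against 0.647 and 0.635 RPKM in input, a log2 ratio of 0.45 ± 0.10 (SE, limma, adjusted p = 0.00448). Acvr1b had 0.753 and 0.734 RPKM against 0.551 and 0.577 RPKM, a log2 ratio of 0.41 ± 0.13 (SE, limma, adjusted p = 0.0202). By limma, Acvr1b did not pass without input replicate 1 (adjusted p = 0.191) or without input replicate 2 (0.126), over a range of 0.000212 to 0.191 in 11 settings. Of the 2 genes with a common Sox6 peak, Acvr1b thus had the lowest mean Pol II level of the 10 members and Smad3 the highest.

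Smad3 had 3.43 and 4.05 RPKM of Pol II against 0.679 and 0.754 RPKM in input, on 584 and 1238 reads. Its log2 ratio of 2.38 ± 0.10 (SE, limma, adjusted p = 1.01e-07) was above that of 94.0% of genes, and its level was 15.2% and 12.6% of that of Actb. Smad2, the other receptor-regulated Smad of this branch, had 0.919 and 1.03 RPKM against 0.672 and 0.612 RPKM, a log2 ratio of 0.61 ± 0.11 (SE, limma, adjusted p = 0.00107). Both Pol II libraries of Smad3 were above 3 RPKM and both of Smad2 near 1 RPKM. Smad4, the common partner, had 1.05 and 1.06 RPKM against 0.520 and 0.467 RPKM, a log2 ratio of 1.11 ± 0.11 (SE, limma, adjusted p = 2.01e-05). Smad7, the inhibitory Smad, had 1.05 and 0.869 RPKM against 0.497 and 0.609 RPKM, a log2 ratio of 0.81 ± 0.17 (SE, limma, adjusted p = 0.0025).

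Ordered by mean Pol II level over the body, the members ran Smad3, Fst, Mstn, Acvr2a, Smad4, Smad2, Smad7, Tgfbr1, Acvr2b and Acvr1b. The replicate values of neighbours did not overlap between Smad3 and Fst, between Mstn and Acvr2a, between Acvr2a and Smad4, or between Smad4 and Smad2. The last of these gaps was narrow, with 1.05 RPKM in Smad4 replicate 1 against 1.03 RPKM in Smad2 replicate 2. Fst and Mstn overlapped, and so did each pair of neighbours from Smad2 to Acvr1b. Levels differ between genes also in how well reads map to them, which these values do not correct.

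Called Pol II peaks were found in few of the members. Smad3 was overlapped by 8 Pol II peaks in replicate 1 and 28 in replicate 2, which covered 1368 and 9308 bp, and at least 1 peak of each replicate touched its start window. It was the only member with Pol II peaks of both replicates, against 10.6% of all genes. Acvr2a had 1 peak of 41 bp in replicate 2, which makes 2 members with a replicate 2 peak, against 17.9% of all genes. The other 8 members, Mstn and Fst among them, had none, although their reads over the body exceeded input.

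Pol II reads continued beyond the end of Smad3. In the 10 kb downstream of the gene they reached 4.87 and 5.94 RPKM against 0.869 and 0.631 RPKM in input, and in the 10 kb upstream 0.650 and 0.471 RPKM against 0.564 and 0.685 RPKM. The downstream stretch also holds the end of Aagab, a gene on the opposite strand, and reads of the 2 genes cannot be told apart there. Downstream of Smad4, where no other gene was annotated, Pol II gave 2.08 and 1.74 RPKM against 0.660 and 0.487 RPKM in input. Downstream of Mstn it gave 0.520 and 0.688 RPKM against 0.728 and 0.685 RPKM in input, and the groups overlap.

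**Figure D4:**
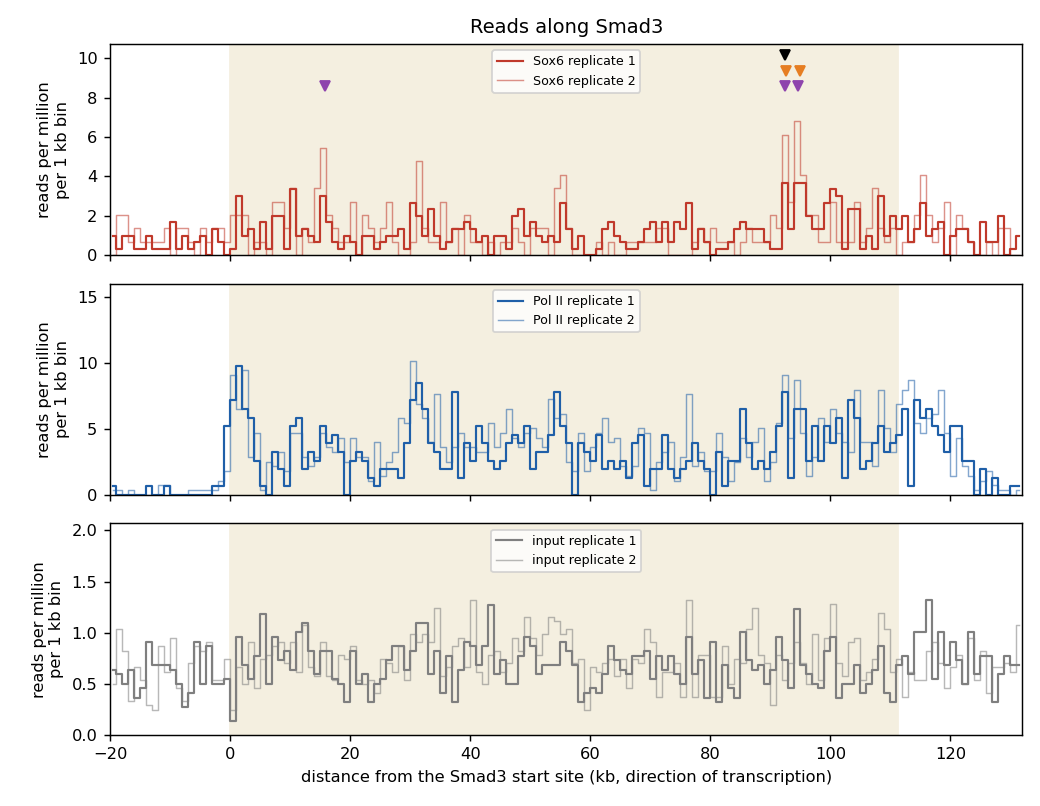
Sox6, Pol II and input levels in RPM in 1 kb bins from 20 kb before to 20 kb after Smad3, against the distance from its start in kb; the gene is shaded, dark and pale lines are replicates 1 and 2, and triangles mark Sox6 peaks of the common list (black), replicate 1 (orange) and replicate 2 (purple). Pol II rises at the start and is above its upstream level in most bins of the gene and in the first 10 kb past its end, with single bins at 0 in replicate 1, and Sox6 has its highest bins under the triangles of introns 4 and 5, in the last of 4 equal parts of the gene, which holds 1.72 and 1.76 RPKM of Sox6; the vertical scales of the panels differ.

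At start sites Pol II exceeded input for 6 of the 8 members with enough reads, against 47.3% of all 18600 windows tested. The filter of 10 reads counts Pol II reads too, and Smad4 and Smad2 reached it only with them. Without the filter 6 of 10 members were higher, beside 10294 of 22764 windows. Higher windows were 99.9% of all calls, and 68.6% when 0.2 RPM was added. Smad3 had 13 and 12 Pol II reads within 500 bp of its start, or 8.45 and 4.34 RPM, against 6 and 5 input reads, or 0.273 and 0.206 RPM. Both Pol II libraries were far above input, with a log2 ratio of 4.60 ± 0.54 (SE, 2 libraries per group, limma, adjusted p = 3.57e-16), above 98.2% of the windows. Mstn had 7 and 11 reads, or 4.55 and 3.98 RPM, against 1.14 and 1.07 RPM in input, a log2 ratio of 2.00 ± 0.40 (SE, limma, adjusted p = 3.11e-06). Acvr2a had 5 and 4 reads, or 3.25 and 1.45 RPM, against 0.410 and 0.371 RPM, a log2 ratio of 2.55 ± 0.63 (SE, limma, adjusted p = 0.000164).

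Smad4, Smad2 and Smad7 also passed at the start, on few reads. Smad4 had 1 and 6 Pol II reads, Smad2 had 2 and 2, and Smad7 had 1 and 4. Their log2 ratios were 3.61 ± 0.91, 2.67 ± 0.90 and 2.51 ± 0.88 (SE, limma). These ratios depend on the added 0.5 reads, which weigh more in the Pol II libraries than in the deeper inputs. With 0.2 RPM added they were 2.17, 1.67 and 1.55, and in windows of 2000 bp 1.64, 1.96 and 2.91. None of the 3 passed with 0.2 RPM added, with limma adjusted p of 0.0844 for Smad4, 0.0936 for Smad2 and 0.135 for Smad7. Without input replicate 1, Smad4 (0.0756) and Smad7 (0.226) did not pass either. The adjusted p ran from 1.77e-05 to 0.0844 for Smad4 and from 0.000982 to 0.0936 for Smad2 in 10 of 14 settings, and from 3.98e-09 to 0.226 for Smad7 in 11 of them. In the others, thinned inputs, windows of 500 bp and the fit without input replicate 2 among them, these members had too few reads to be tested. With inputs thinned to the depth of Pol II, Mstn (limma adjusted p = 0.05004) and Acvr2a (0.142) did not pass. The adjusted p ran from 3.92e-09 to 0.05004 for Mstn in 14 settings and from 4.16e-06 to 0.142 for Acvr2a in 13.

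Fst and Acvr1b did not pass at the start, with 1 and 2 reads and with 2 and 1 reads of Pol II (log2 ratios 1.86 ± 0.89 and 1.58 ± 0.87 SE, limma adjusted p = 0.0758 and 0.132). The log2 ratio of Fst was 1.805 without Pol II replicate 1 and 1.91 without replicate 2, and that of Acvr1b was 0.79 and 2.38. Such a fit rests on a lone Pol II library with 1 or 2 reads, which is assumed to vary like the inputs. With scaling to bins without peaks both passed (0.0168 for Fst and 0.0326 for Acvr1b), which makes 8 of 8 members higher, beside 10085 of all 18600 windows under this scaling. Fst also passed at the most upstream annotated start (0.0164), and Acvr1b with 5′ ends moved 75 bp downstream (0.00671). The adjusted p of Fst ran from 0.0164 to 0.557 in the 10 settings with enough reads, and that of Acvr1b from 0.00356 to 0.566 in 11. Acvr2b and Tgfbr1 had fewer than 10 reads in the 4 libraries. Acvr2b had 0 Pol II reads in both, which allows up to 0.698 RPM over the group, and Tgfbr1 had 0 and 2.

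The start of Mstn differed from the others in base composition and in input reads. Its 1000 bp window was 38.1% G and C, while those of the other 9 members were 66.3% to 76.2%. Input gave 25 and 26 reads at Mstn and between 1 and 9 reads at the others. Over all genes the median window below 45% G and C held 13 input reads and 0 Pol II reads in the 2 libraries of each together, and that over 65% held 11 and 5. Mstn held 51 and 18, so its input was above the median window of like composition too. The share of base composition in the differences between starts was not tested.

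**Figure D5:**
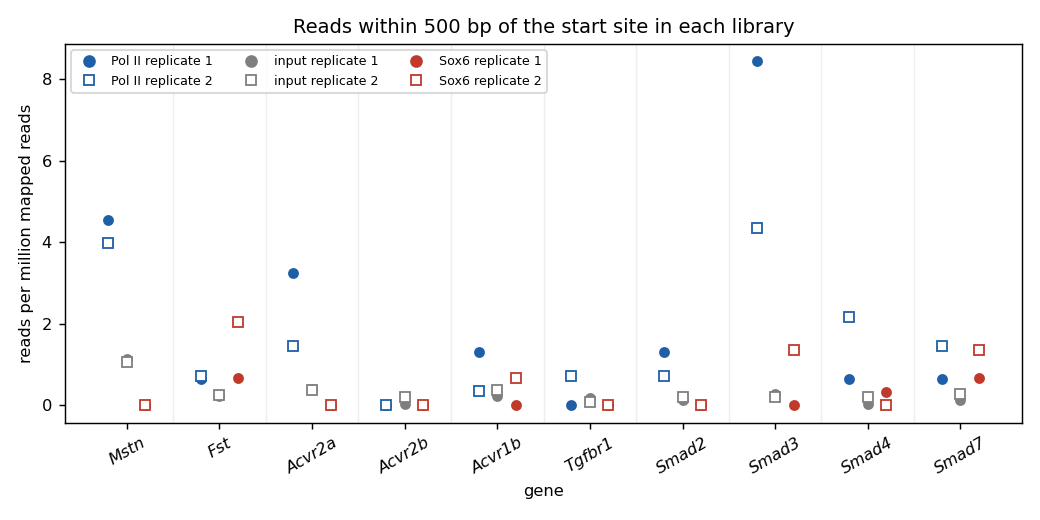
Level within 500 bp of the start of each of the 10 genes in the 6 libraries, in RPM; circles are replicate 1 and squares replicate 2. Pol II (blue) reaches 8.45 and 4.34 RPM at Smad3 and 4.55 and 3.98 RPM at Mstn, while Sox6 (red) lies at 0 in both libraries at Mstn, below both inputs (grey).

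The genes whose levels over the body were nearest to those of Mstn in the 6 libraries were Tax1bp1, Nfyb and Errfi1. The Euclidean distance of log2(RPKM + 0.1) was 0.26, 0.26 and 0.29 among 20874 genes. Tax1bp1 had 1.90 and 2.09 RPKM of Pol II, Nfyb 2.09 and 2.74 RPKM, and Errfi1 1.71 and 2.13 RPKM, beside 1.87 and 2.39 RPKM for Mstn. These are likenesses of level alone.

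Beyond the 10 members, 53 other genes of the TGF-beta family and its pathways were read in the same way, as ligands, extracellular inhibitors, processing enzymes, receptors, Smads with their regulators and known Smad targets. Over the gene body Pol II exceeded input for 26 of the 53 and was lower for 10, against 37.7% and 25.5% of all genes, with a median log2 ratio of 0.47. By role, it was higher for 8 of 11 Smads and regulators and lower for 1, higher for 4 of 5 Smad targets, higher for 4 of 11 ligands and lower for 2, and higher for 5 of 11 receptors and lower for 4. It was higher for 4 of 11 extracellular inhibitors and carriers and lower for 1, and higher for 1 of 4 processing enzymes and lower for 2. Sox6 over the body exceeded input for 6 of the 53 and was lower for 3, against 5.43% and 1.77% of all genes. A common Sox6 peak was near 2 of the 53, which is close to the 4.34% of all genes. These 2 were Ltbp1, which encodes a protein that stores latent TGF-beta in the matrix, and Nedd4l, which encodes a ubiquitin ligase that marks activated Smads. Their Pol II levels were 0.733 and 0.745 RPKM for Ltbp1 and 0.820 and 0.772 RPKM for Nedd4l, against 0.606 to 0.653 RPKM in the inputs.

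The 5 genes of this wider list with the highest mean Pol II level were Cdkn1a, Tgfb3, Tgif1, Id1 and Ctgf. Cdkn1a, a cell cycle inhibitor that Smads and myogenic factors are known to induce, had 30.4 and 32.4 RPKM, near the level of Actb. The ligand gene Tgfb3 had 7.10 and 7.27 RPKM, and Tgif1, which encodes a repressor that binds Smad2 and Smad3, had 6.62 and 5.86 RPKM. The Smad targets Id1, an inhibitor of myogenic factors, and Ctgf, a matrix protein gene, had 6.89 and 3.29 RPKM and 3.79 and 5.28 RPKM. All 5 were above every one of the 10 members in mean level, but Id1 rests on 7 and 6 Pol II reads and Ctgf on 16 and 40. Id1 in replicate 2 was below both Smad3 values, 3.43 and 4.05 RPKM, and Ctgf in replicate 1 below Smad3 in replicate 2. Gdf11, the ligand gene closest in sequence to Mstn, had 4.01 and 4.22 RPKM, also above Mstn in both libraries; it was chosen for mention after its values were seen.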

How the data were processed

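The authors aligned single end reads of Sox6, Pol II and input libraries to NCBI Build 37 (mm9) with Bowtie 0.12.5, used SISSRs to find peaks over input, and joined Sox6 peaks of both replicates within 50 bp with ChIP-Seq Tool Set. The deposited files hold the positions of mapped reads and of peaks, with no counts per gene, and the scores of the peak files were not used. Genes were the 22764 of the GENCODE annotation of the same build with a RefSeq transcript, each by its longest coding model. Reads were counted by 5′ end within 500 bp of each start, over the rest of genes of at least 1000 bp, and in 450 bp at peaks. Windows with at least 10 reads over the 4 libraries of a comparison were tested with limma 3.58.1 (R 4.3.3, trend, 2 against 2 libraries, two-sided) on log2 of (reads + 0.5) scaled to mapped reads, with Benjamini-Hochberg adjustment over all windows at 0.05. Counting and the exact tests used Python 3.11.15, scipy 1.17.1 and pysam 0.24.0. The scripts were tested on simulated data. Libraries held 1468604 to 24249850 reads, and a count of 0 was taken to allow 3 reads.

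The 10 members, the wider list of 53 genes and the markers were chosen with earlier results of these data known. Named genes were all members, Actb, the genes of the wider list with a common Sox6 peak, its 5 highest in Pol II, and the 3 nearest to Mstn. Gdf11 and Pax7 fall outside this rule and were named after their values were seen. Aagab is also outside it and is named as the gene annotated in the stretch downstream of Smad3. Alternatives were an added 0.2 RPM, no filter, repeated positions counted once, inputs thinned to the depth of the immunoprecipitation, scaling to bins without peaks, a replicate block, other windows and starts, and leaving out each library.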

Additional observations from a re-analysis of the deposited data

How the results depend on the processing

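The depth of the Sox6 and Pol II libraries limits single windows: 8 of the 10 members had fewer than 10 Pol II reads at the start over both libraries. Over gene bodies Pol II exceeded input for 8 members under each of the 11 alternatives run, while Acvr2b passed under 8 and Acvr1b under 9 of them. No called result of a member reversed its direction in any alternative run. Pol II start calls numbered 8810 of 18600 windows tested, and 5621 of 7683 with thinned inputs. With 0.2 RPM added, 6907 were higher and 3166 lower. Sox6 start calls numbered 415 of 18689 windows tested, and 971 with 0.2 RPM added (32 higher and 939 lower), 1430 of 22764 without a filter, 32 of 1684 with thinned inputs, 78 of 21720 in windows of 2000 bp, 239 of 10452 in windows of 500 bp, and from 1 to 6987 when 1 library was left out. Without input replicate 1 there was 1 call, and without Sox6 replicate 1 there were 6987. Sox6 calls over gene bodies numbered 1447, and 16 with 0.2 RPM added and from 220 (without input replicate 1) to 10160 (without Sox6 replicate 1) when 1 library was left out. Members with a common Sox6 peak fell from 2 to 1 when the replicate peaks had to share a base. With thinned inputs and windows of 500 bp fewer windows were tested. The cause of the other changes was not tested.

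The 4 immunoprecipitations share 2 inputs. The labels do not state that equal replicate numbers mark 1 experiment, and the libraries were not treated as paired. The deviations of same-numbered libraries correlated between -0.06 and 0.05. With a replicate block Sox6 calls over gene bodies rose to 3945, and Acvr1b (adjusted p = 0.0141, limma) and Acvr2a (0.00177, lower) passed. The block changed no other call of a member.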
